A study of Macaca radiata with 6 samples.

Results

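STAR, STARD3, STARD4 and TSPO, 4 genes grouped here as carriers of cholesterol to the mitochondrion, were examined in the corpus luteum (CL) of bonnet monkeys (Macaca radiata). Every probe set to which the platform annotation gives one of these symbols and no other was taken, whatever its values. This gave 6 of the 52707 probe sets tested and 4 of 14132 genes: 1 probe set each for STAR and STARD3, and 2 each for STARD4 and TSPO. Adult female monkeys received a single subcutaneous dose of Cetrorelix (CET), an antagonist of the GnRH receptor that stops pituitary support of the CL by LH, at 150 µg/kg BW, or vehicle (VEH, 5.25% glucose), on luteal phase day 7. The CL was removed 24 h later, cut into pieces and frozen, and total RNA of 3 CET and 3 VEH samples was hybridised to 1 Affymetrix rhesus macaque array each. The numbers 1 to 3 of the CET samples and 4 to 6 of the VEH samples come from the labels. The design text describes CL of both treatments as taken from the same monkeys, while the paper counts the animals of VEH and of CET separately. No label ties an array to an animal, so whether the arrays are paired is not known. No animal term was fitted, and the p-values measure only the spread between these 6 arrays. The sources used here give no genotype and no age beyond adult.

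Progesterone synthesis in luteal cells starts when cholesterol reaches the inner mitochondrial membrane, where the side chain cleavage enzyme converts it to pregnenolone. STAR, the steroidogenic acute regulatory protein, is the LH-dependent and rate-limiting carrier of this step. STARD3 and STARD4 bind cholesterol through the same START domain, STARD3 on late endosomes and STARD4 in the cytosol, where its transcript is known to be sterol-regulated, and TSPO is a cholesterol-binding protein of the outer mitochondrial membrane.

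The mean log2 signals of STAR and of the brighter STARD4 probe set after quantile normalization were lower after CET, by differences that amount to 2.80-fold and 2.94-fold, and on this scale the highest CET array lay below the lowest VEH array for both. The means of STARD3 and TSPO differed by less than the spread between replicates. None of these differences passed the test across all probe sets. The deposited values are MAS5 signals, that is, the brightness of a probe set on a linear scale, and every log2 value given here is the log2 of that signal after quantile normalization between arrays. A difference is the mean log2 signal of CET minus that of VEH. In limma with Benjamini-Hochberg adjustment over all probe sets, 0 of the 6 probe sets had an adjusted p under 0.05, and 0% of the 52707 probe sets did, the smallest adjusted p being 0.827. At an unadjusted p under 0.05, 2 of the 6 probe sets were counted, the STAR probe set and the brighter STARD4 probe set, against 5.39% of all probe sets (2840). All 3 CET arrays lay below all 3 VEH arrays for the same 2 of 6 probe sets, against 5.25% of all. A mean at least 1.5-fold lower after CET was found for 3 of the 6, against 23.8% of all, and a mean at least 1.5-fold higher for 0 of the 6, against 23.9% of all. In whole CL, fewer steroidogenic cells and less RNA per cell cannot be told apart.

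**Figure D1:**
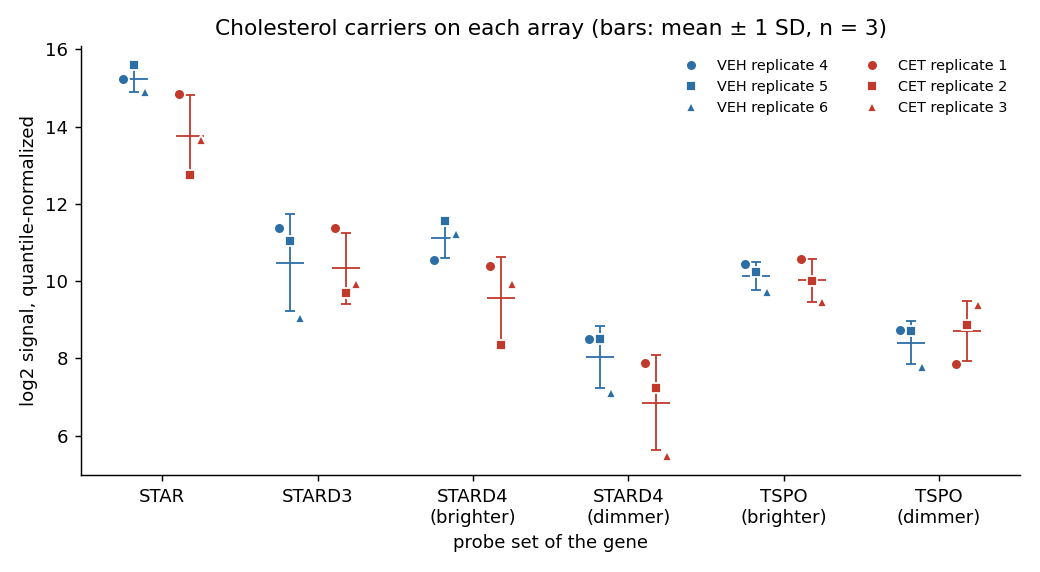
Quantile-normalized log2 signal (y axis) of the 6 probe sets (x axis) on each of 3 VEH arrays (blue) and 3 CET arrays (red), with the mean and 1 SD of each group. For STAR and the brighter STARD4 probe set all red points lie below all blue points, and for the other 4 probe sets the groups overlap. Levels of different probe sets are not comparable with each other.

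The arrays themselves differed in quality. The mean of the signals without the highest and lowest 2% was 500 on all 6 arrays. The ratio of 3' to 5' signal of the housekeeping control probe sets, as a mean log2 ratio over GAPDH, ACTB and EF1A, was 5.92 on CET replicate 2 and 0.607 to 3.54 on the other 5 arrays. By Spearman correlation over probe sets, each of the 3 CET arrays was closer to the VEH arrays than to its own group. The mean rho was 0.664 with the other CET arrays and 0.756 with the VEH arrays for CET replicate 1, 0.710 and 0.727 for CET replicate 2, and 0.709 and 0.733 for CET replicate 3. The 3 VEH arrays correlated more with each other than with CET. Of 10 luteal markers, 5 had a probe set of that name in the table used here (STAR itself, HSD3B2, INHA, CYP19A1 and FDX1), and all 5 had a mean above the dim limit, which is the 40th percentile of the mean log2 signals. CYP11A1 and LHCGR, which also define luteal cells, were not measured under those names.

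STAR, the regulated carrier, had separate groups of unequal spread. Its log2 signal was 15.23 in VEH replicate 4, 15.58 in VEH replicate 5 and 14.91 in VEH replicate 6. After CET it was 14.85 in replicate 1, 12.75 in replicate 2 and 13.65 in replicate 3. CET replicate 1 lay just under the VEH range, 0.052 below the lowest VEH array, and CET replicates 2 and 3 lay well below it. The group means were 13.75 ± 1.06 (SD, n = 3) for CET and 15.24 ± 0.34 (SD, n = 3) for VEH, so the 3 CET arrays were spread more widely than the 3 VEH arrays. The difference of -1.49 had a standard error of 0.53 and a 95% interval of -2.66 to -0.32 in limma (unadjusted p = 0.0172, adjusted p = 0.827). The two-sided exact permutation test of 3 against 3 arrays gave p = 0.1, the smallest it can give. Of the 10929 genes measured, that is, with a brightest probe set above the dim limit, 2.65% had a more negative difference than STAR.

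The separation of the STAR arrays held on the normalized scale and not in the signals as deposited. These were 57983.5, 34264.6 and 34389.7 in VEH replicates 4, 5 and 6, and 43964.9, 5408.3 and 8507.93 in CET replicates 1, 2 and 3. On this scale CET replicate 1 lay above VEH replicates 5 and 6, and CET replicates 2 and 3 lay below all VEH arrays. The mean deposited signal was 19293.7 after CET and 42212.6 after VEH, 2.19 times as high. The log2 difference of the deposited signals was -1.69 (standard error 0.75, unadjusted p = 0.0413 and adjusted p = 0.738 in limma).

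STARD4, the soluble START protein that moves cholesterol between membranes, had its 2 probe sets on the same side with unequal separation. At the brighter probe set the log2 signal was 10.56, 11.56 and 11.21 in VEH replicates 4, 5 and 6. It was 10.40, 8.35 and 9.92 in CET replicates 1, 2 and 3. All 3 CET arrays lay below all 3 VEH arrays, with the smallest gap, 0.16, between CET replicate 1 and VEH replicate 4. The means were 9.56 ± 1.07 (SD, n = 3) for CET and 11.11 ± 0.51 (SD, n = 3) for VEH, and the difference was -1.56 (standard error 0.57, 95% interval -2.79 to -0.32, unadjusted p = 0.0182 and adjusted p = 0.827 in limma). The exact permutation p was 0.1, again the smallest possible, and 2.17% of measured genes had a more negative difference. The groups were also separate in the deposited signals, at 330.047 to 1270.39 after CET and 1487.27 to 3538.83 after VEH.

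The dimmer STARD4 probe set gave log2 signals of 8.50, 8.49 and 7.10 in VEH replicates 4, 5 and 6. It gave 7.87, 7.22 and 5.48 in CET replicates 1, 2 and 3. Here VEH replicate 6 lay below CET replicates 1 and 2, so the groups overlapped, and the lowest CET array was replicate 3 where it was replicate 2 at the brighter probe set. The difference was -1.17 (standard error 0.82, 95% interval -2.96 to 0.61, adjusted p = 0.832 in limma, exact permutation p = 0.3). Its mean over the 6 arrays, 7.44, lay just above the dim limit of 7.43, and its mean after CET, 6.86, lay below that limit. The mean of both STARD4 probe sets gave a difference of -1.36 with a standard error of 0.53.

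STARD3, the late endosomal START protein, did not separate the groups. Its log2 signal was 11.36, 11.03 and 9.04 in VEH replicates 4, 5 and 6. It was 11.37, 9.68 and 9.94 in CET replicates 1, 2 and 3. The highest value was that of a CET array and the lowest that of a VEH array, and VEH replicates 4 and 5 lay together with CET replicate 1. The means were 10.33 ± 0.91 (SD, n = 3) for CET and 10.48 ± 1.26 (SD, n = 3) for VEH. The difference of -0.15 was smaller than its standard error of 0.66 (adjusted p = 0.975 in limma, exact permutation p = 1). The 95% interval, -1.59 to 1.30, holds both a decrease as large as the point estimate for STAR and an increase of up to 1.30.

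TSPO, the outer membrane protein, had 2 probe sets that disagreed in direction. At the brighter probe set the log2 signal was 10.44, 10.25 and 9.72 in VEH replicates 4, 5 and 6. It was 10.58, 10.01 and 9.46 in CET replicates 1, 2 and 3. The highest and the lowest value both belonged to CET arrays, with the VEH arrays between them. The means were 10.02 ± 0.56 (SD, n = 3) for CET and 10.13 ± 0.37 (SD, n = 3) for VEH, with a difference of -0.12 (standard error 0.47, 95% interval -1.14 to 0.90, adjusted p = 0.973 in limma, exact permutation p = 0.8). This interval ends short of the -1.49 estimated for STAR, but it overlaps the interval of STAR itself, -2.66 to -0.32.

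The dimmer TSPO probe set gave log2 signals of 8.73, 8.71 and 7.77 in VEH replicates 4, 5 and 6. It gave 7.86, 8.85 and 9.39 in CET replicates 1, 2 and 3. CET replicate 1 was the lowest CET array here and the highest at the brighter probe set, while the VEH arrays kept the same order at both. The difference was 0.29 (standard error 0.61, 95% interval -1.03 to 1.62, adjusted p = 0.940 in limma, exact permutation p = 0.5). The mean of both TSPO probe sets gave 0.088 with a standard error of 0.27, so the sign for TSPO depended on the probe set read.

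**Figure D2:**
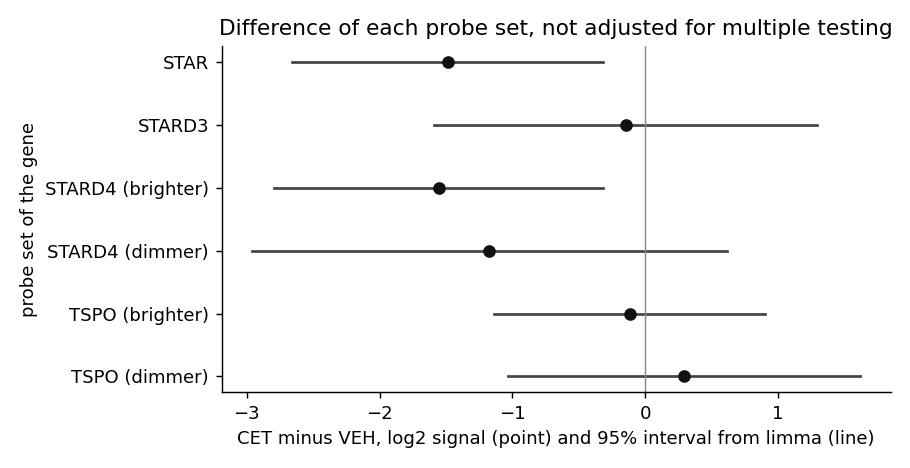
Difference in mean log2 signal, CET minus VEH (x axis), of the 6 probe sets (y axis), each point with its 95% interval from limma. The intervals of STAR and of the brighter STARD4 probe set lie below 0 before adjustment, at -2.66 to -0.32 and -2.79 to -0.32, and the other 4 include 0.

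The 4 genes were then compared with each other by their differences. In each array the log2 signal of one gene was subtracted from that of another at their brightest probe sets, and the result was compared between CET and VEH by the two-sided exact permutation test, with Benjamini-Hochberg adjustment over the 6 pairs. The difference of STAR was more negative than that of STARD3 by 1.34 (standard error 0.62) and more negative than that of TSPO by 1.37 (standard error 0.52). For both pairs the CET and VEH arrays did not overlap, and the permutation p was 0.1, the smallest possible, with an adjusted p of 0.3. STAR and STARD4 differed by 0.069 (standard error 0.37, exact permutation p = 0.9, adjusted p = 1). STARD4 was more negative than STARD3 by 1.41 (standard error 0.95) and more negative than TSPO by 1.44 (standard error 0.76), each with overlapping groups, an exact permutation p of 0.2 and an adjusted p of 0.3. STARD3 and TSPO differed by -0.030 (standard error 0.61, exact permutation p = 1). Single arrays moved these values: STAR against STARD3 was -0.80 without VEH replicate 6, and STAR against TSPO was -0.85 without CET replicate 2. STARD3 against STARD4 was 0.63 without VEH replicate 6 and 2.11 without VEH replicate 4, and STARD4 against TSPO was -0.87 without CET replicate 2. With 3 arrays a group, none of the 6 pairs could reach an adjusted p under 0.05.

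Array by array, STAR and the brighter STARD4 probe set followed similar courses. Relative to the VEH mean of the same probe set, STAR stood at -0.38, -2.49 and -1.59 on CET replicates 1, 2 and 3. The brighter STARD4 probe set stood at -0.71, -2.76 and -1.20. On both, CET replicate 2 was the lowest array and CET replicate 1 the one nearest to VEH. The dimmer STARD4 probe set stood at -0.16, -0.81 and -2.55, and was lowest on CET replicate 3. STARD3 stood at 0.90, -0.80 and -0.54 on these arrays, and the brighter TSPO probe set at 0.45, -0.13 and -0.67. For both of these CET replicate 1 lay above the VEH mean. Each gene was also centred on its own mean over the 6 arrays, at its brightest probe set. The root mean square difference between STAR and STARD4 was then 0.37 on the log2 scale, against 0.91 between STAR and STARD3 and 0.86 between STAR and TSPO. The share of other genes as near to STAR as STARD4 was not counted. These are descriptions over the same 6 arrays, which were normalized together.

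**Figure D3:**
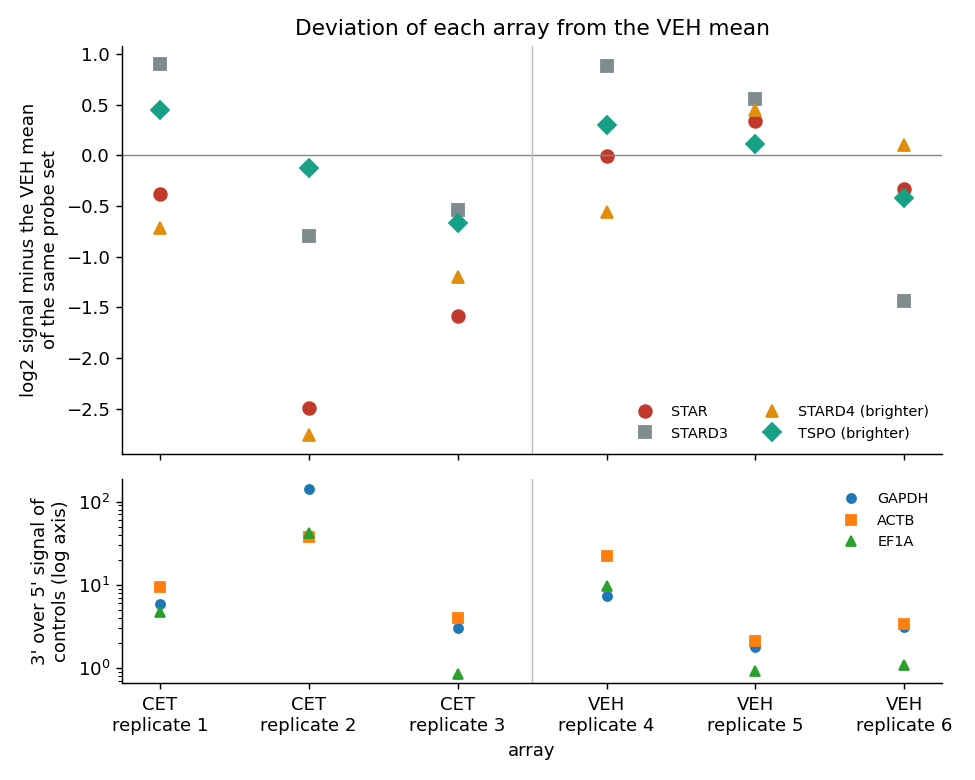
Upper panel: log2 signal minus the VEH mean of the same probe set (y axis) for STAR, STARD3 and the brighter probe sets of STARD4 and TSPO on each array (x axis). Lower panel: 3' over 5' signal of the GAPDH, ACTB and EF1A control probe sets on the same arrays, on a log axis. STAR and STARD4 are lowest on CET replicate 2, at -2.49 and -2.76, where the GAPDH ratio is 142.9.

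CET replicate 2 was both the lowest array for STAR and the brighter STARD4 probe set and the array on which the 3' to 5' ratio was highest. Without it the difference of STAR was -0.96 (standard error 0.49, unadjusted p = 0.0772 and adjusted p = 0.957 in limma), and that of STARD4 was -0.98 (standard error 0.47, unadjusted p = 0.0627 and adjusted p = 0.957). Both differences stayed negative. Leaving out CET replicate 1 gave -1.97 for STAR and -1.99 for STARD4 (adjusted p = 0.249 and 0.265 in limma). Without VEH replicate 5 the unadjusted p was 0.0587 for STAR and 0.0738 for STARD4, and without VEH replicate 6 it was 0.0516 for STARD4. With the mean log2 3' to 5' ratio as a covariate, STAR had a difference of -1.20 (standard error 0.51) and STARD4 one of -1.03 (standard error 0.47), with an adjusted p of 0.904 for each in limma. Under cyclic loess STAR was -0.98 (unadjusted p = 0.0538) and STARD4 -1.48.

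Over 16 alternatives with a p-value, the difference of STAR stayed negative in 16 and had an unadjusted p under 0.05 in 11. The same 2 counts held for STARD4. The adjusted p was under 0.05 in 0 of the 16 for either gene, with the lowest at 0.249 for STAR and 0.265 for STARD4. The methods' t-test, which uses the spread of each probe set alone, gave an unadjusted p of 0.0809 for STAR and 0.0854 for STARD4, and an adjusted p of 0.882 for each. For STARD3 the sign turned when CET replicate 2, CET replicate 3, VEH replicate 4 or VEH replicate 5 was left out, and the difference ranged from -0.86 to 0.30 over the arrays left out. For TSPO it turned without CET replicate 3 and without VEH replicate 4, within a range of -0.40 to 0.165. RPL19, the ribosomal protein gene against which the study's RT-PCR was normalized, had a difference of -0.38 (standard error 0.46, adjusted p = 0.893 in limma), and 0.023 without CET replicate 2.

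**Figure D4:**
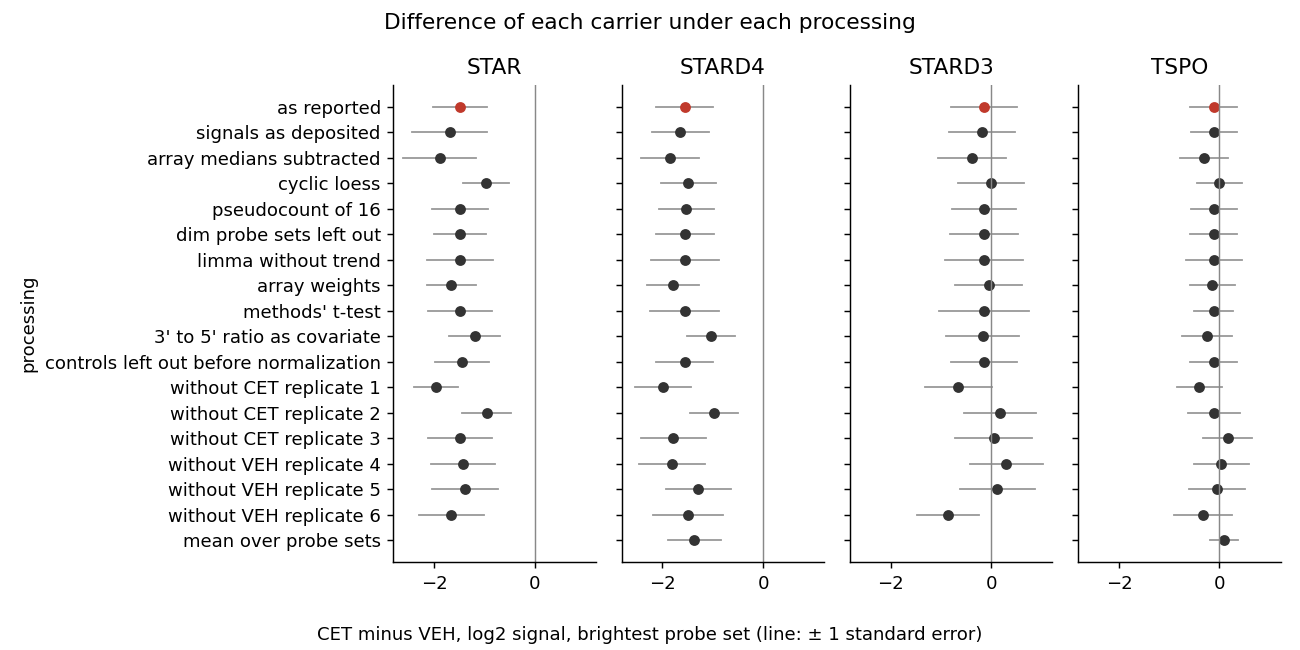
Difference in log2 signal, CET minus VEH (x axis), of each gene under the reported processing (red) and each alternative (black), with 1 standard error (lines); the mean over probe sets is shown for the 2 genes with more than 1. STAR and STARD4 lie below 0 throughout, from -1.97 to -0.96 and from -1.99 to -0.98, and STARD3 and TSPO lie on either side of 0.

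Markers of the cell types of the CL were read on the same arrays. Their counts of lower means stand beside 57.7% of all 10929 measured genes with a lower mean after CET. The summed deposited signal of the 5 luteal markers, STAR included, was 28459.3 to 143327 on CET arrays and 100473 to 176926 on VEH arrays, and 5 of 5 had a lower mean after CET. Of the fibroblast, pericyte and smooth muscle list 4 of 7 measured members had a lower mean, with sums of 13657 to 29733.1 against 28597.2 to 40445.3. Of the epithelial and mesothelial list, 3 of 4 measured members were lower (sums of all 8 of 1127.17 to 2437.5 against 2333.45 to 3023.44), and EPCAM, CDH1, KRT19 and MSLN lay below the dim limit. Endothelial markers were lower for 7 of 8 measured (sums of all 9 of 12502.4 to 21637.2 against 17202.9 to 24421), with KDR below the dim limit. Macrophage and leukocyte markers were lower for 6 of 8 (6000.41 to 11068.8 against 4441.23 to 11805.2). Red blood cell markers were lower for 1 of 2 measured (sums of all 3 of 1913.59 to 4552.59 against 1977.45 to 3699.09), with AHSP below the dim limit. The lowest CET sum lay below the lowest VEH sum for every list but that of macrophages and leukocytes, by little for red blood cells. The sums are of deposited signals, while the lower means were counted on the normalized scale, and these scales can order arrays differently. RPL19 was 10911.5 on CET replicate 3 and 18161.7 on VEH replicate 4 as deposited, but 14.05 and 13.82 in normalized log2 signal. The part of these cells in the STAR and STARD4 values was not tested.

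The pathway around the 4 carriers was described by 7 lists of genes, none of which holds a carrier. Among all 10929 measured genes, 57.7% had a lower mean after CET, 3.19% had an unadjusted p under 0.05 and a lower mean, 2.1% had such a p and a higher mean, and the median difference was -0.13. Against this background, all 4 carriers had a lower mean at their brightest probe set, and 2 of 4 had an unadjusted p under 0.05 with a lower mean. The differences of STARD3 (-0.15) and TSPO (-0.12) lay near the median of all measured genes. The dimmer TSPO probe set had a higher mean after CET (0.29). In the lists, 0 genes had an adjusted p under 0.05 in limma, and each gene named below had one of at least 0.827.

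Of the other members of the START family, which share the lipid-binding fold of STAR, and of STARD3NL, the partner of STARD3 without a START domain, 12 had a probe set and 8 were measured. Of the 8, 6 had a lower and 2 a higher mean, with a median of -0.31. STARD5, a cytosolic START protein, was the 1 member at an unadjusted p under 0.05, in the direction opposite to STAR. Its log2 signal was 9.70, 10.77 and 11.24 in CET replicates 1, 2 and 3 against 9.03, 9.70 and 8.86 in VEH replicates 4, 5 and 6, so that CET replicate 1 and VEH replicate 5 were almost level. Its difference was 1.38 (standard error 0.52, unadjusted p = 0.0213). STARD3NL had a difference of -0.64 (standard error 0.50), with -0.78 at its other probe set. STARD10, whose mean lay below the dim limit, had one of -1.04 (standard error 0.71), with -0.30 at its other probe set.

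Of the list of mitochondrial import and side chain cleavage, not all members of which handle cholesterol or electrons, 10 were measured. Of these, 9 had a lower mean and 1 a higher mean, none at an unadjusted p under 0.05, with a median of -0.51. FDX1, the ferredoxin that supplies the side chain cleavage enzyme, had log2 signals of 14.39, 10.09 and 13.86 in CET replicates 1, 2 and 3 against 14.47, 13.90 and 14.46 in VEH replicates 4, 5 and 6. Only CET replicate 2 lay far from the others, and the difference of -1.50 (standard error 0.88) was -0.15 without it. The other FDX1 probe sets gave -1.10 and -0.33. TOMM20, a receptor of the outer membrane import complex, had a difference of -1.32 (standard error 0.64), and VDAC3, a channel of the outer membrane, had one of -0.81 (standard error 0.53). For both the groups overlapped.

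Of the genes of late endosomes and of their contacts with the ER, where STARD3 acts, 10 were measured, 8 with a lower and 2 with a higher mean (median -0.30). OSBPL5, an oxysterol-binding protein of ER contacts, had a difference of 1.86 (standard error 0.83, unadjusted p = 0.0464), while its other 2 probe sets gave -1.27 and -0.43. Its log2 signal was 5.26 in VEH replicate 6, far below the other VEH arrays, of which VEH replicate 4 was highest at 8.25. Without VEH replicate 6 the difference was 0.90. The mean of OSBPL5 after VEH, 7.17, lay below the dim limit. LAMP2, a membrane protein of lysosomes, had log2 signals of 8.71 to 8.75 on the CET arrays and 9.45 to 9.83 on the VEH arrays. These groups did not overlap, and the difference was -0.96 (standard error 0.46, unadjusted p = 0.0599). NPC1, which exports cholesterol from late endosomes, had a difference of -0.71 (standard error 0.42).

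Of the sterol sensing genes, to whose control STARD4 is known to belong, 8 were measured, 7 with a lower mean and 1 with a higher mean (median -0.61). INSIG2, which retains the SREBP cleavage complex in the ER, had log2 signals of 8.45, 4.89 and 8.43 in CET replicates 1, 2 and 3 against 9.68, 10.05 and 9.82 in VEH replicates 4, 5 and 6. All CET arrays lay below all VEH arrays, CET replicate 2 by far the most, and the difference was -2.59 (standard error 0.87, unadjusted p = 0.0117). Without CET replicate 2 it was -1.40, and the other INSIG2 probe set gave -0.86. At the brighter INSIG2 probe set the mean after CET, 7.26, lay below the dim limit of 7.43, though of the arrays only CET replicate 2 did. SREBF2, the transcription factor of this system, had a difference of -0.68 (standard error 0.48) at its brightest probe set and of -0.23, 0.67 and -0.38 at the others. MBTPS2, a protease that releases the factor, had a difference of -0.64 (standard error 0.44), with -0.22 at its other probe set.

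Of the known regulators of STAR transcription, 14 were measured, 12 with a lower and 2 with a higher mean (median -0.25), and 2 of the 12 had an unadjusted p under 0.05. CREM, a cAMP-responsive factor, had log2 signals of 9.59, 8.19 and 8.61 in CET replicates 1, 2 and 3 against 9.31, 11.19 and 10.11 in VEH replicates 4, 5 and 6. CET replicate 1 lay above VEH replicate 4, and the difference was -1.41 (standard error 0.59, unadjusted p = 0.0366). The other 5 CREM probe sets gave smaller differences, of -0.28, -0.73, -0.23, -0.59 and 0.28. NR5A2, the nuclear receptor LRH-1, had log2 signals of 10.22, 8.71 and 10.23 against 10.05, 12.14 and 10.98, with overlapping groups and a difference of -1.34 (standard error 0.61, unadjusted p = 0.0492). The other NR5A2 probe sets gave -0.97 and -1.23. Without VEH replicate 5 the difference was -0.88 for CREM and -0.77 for NR5A2. GATA6, a zinc finger factor of steroidogenic cells, had one of -0.81 (standard error 0.44).

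Of the LH receptor and protein kinase A list, the signal path that acts on STAR, 11 were measured, 7 with a lower and 4 with a higher mean (median -0.13). LHCGR, the receptor itself, and GNAS had no probe set of those names and are not among the 11. PRKAR2B, a regulatory subunit of the kinase, had log2 signals of 10.24, 6.54 and 8.97 in CET replicates 1, 2 and 3 against 10.63, 10.63 and 10.92 in VEH replicates 4, 5 and 6. Its groups did not overlap, and the arrays lay in the same order within CET as those of STAR. The difference was -2.14 (standard error 0.77, unadjusted p = 0.0173), and -1.13 without CET replicate 2. PDE8A, a cAMP phosphodiesterase, had a difference of -0.62 (standard error 0.44), with 0.07 at its other probe set. PRKACA, a catalytic subunit whose mean lay below the dim limit, had a difference of -1.03 (standard error 0.81).

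Of the list of steroid converting enzymes, not all members of which act on pregnenolone itself, 8 were measured, 7 with a lower mean and 1 with a higher mean (median -0.69). HSD17B7, an enzyme of both steroid and cholesterol synthesis, had log2 signals of 10.77, 9.87 and 10.04 in CET replicates 1, 2 and 3 against 11.36, 11.60 and 11.47 in VEH replicates 4, 5 and 6. The groups did not overlap, and the difference was -1.25 (standard error 0.42, unadjusted p = 0.0113), with -0.57 and -2.17 at its other probe sets. CYP21A2, a hydroxylase of progesterone, had log2 signals of 9.00, 9.66 and 10.42 against 7.94, 7.52 and 6.96, with all CET arrays above all VEH arrays. Its difference was 2.22 (standard error 0.59, unadjusted p = 0.00284 in limma), at 1 probe set. Its mean after VEH, 7.47, lay just above the dim limit of 7.43, and VEH replicate 6 lay below that limit. CYB5A, a cytochrome that assists some of these enzymes, had a difference of -0.82 (standard error 0.38) with groups that did not overlap.

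**Figure D5:**
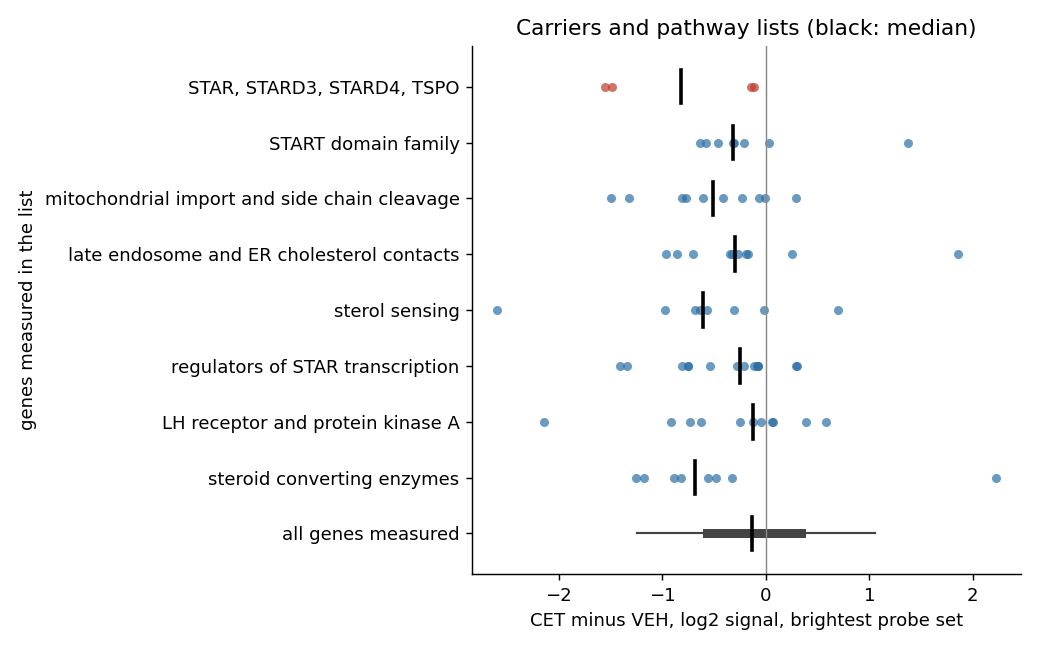
Difference in log2 signal, CET minus VEH (x axis), at the brightest probe set of the 4 carriers (red) and of the measured genes of each pathway list (blue), with the median of each row in black. The bottom row gives all 10929 measured genes by median, quartiles (thick line) and 5th and 95th percentiles (thin line). The list medians run from -0.69 to -0.13, and STAR and STARD4 lie at -1.49 and -1.56.

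The genes whose pattern over the arrays was nearest to that of each carrier were looked up among the other measured genes. The likeness was the root mean square difference between log2 signals over the 6 arrays, each gene centred on its own mean, searched over 10925 other measured genes at their brightest probe sets. The genes nearest to STAR were STT3B, a catalytic subunit of the oligosaccharyltransferase (0.076), IDH1, the cytosolic isocitrate dehydrogenase (0.14), CDH5, the cadherin of endothelial junctions (0.15), and LDAF1, a lipid droplet assembly factor (0.17). STAR itself varied about its mean by 0.98 on this measure. The nearest to STARD4 were LSM2, a subunit of an RNA-binding ring of splicing (0.079), and SERPINB6, an intracellular protease inhibitor (0.17), where STARD4 varied by 1.04. For STARD3 they were NUBP2, a factor of iron-sulfur protein assembly (0.21), and NHSL3 (0.26), against 0.90 for STARD3 itself. For TSPO they were SRA1, the steroid receptor RNA activator (0.076), and ECE2, an endothelin-converting enzyme (0.086), against 0.39. These genes are the nearest of many searched over only 6 arrays, and their values are a description. They cannot be set against the values between carriers, because a search over so many genes picks close ones by itself.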

How the data were processed

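The deposited intensity values were linear MAS5 signals of each probe set, brought by the authors to an equal trimmed mean on every array. Neither a MAS5 version nor detection calls are stated in the sources used here. From them log2 values were computed here, with signals under 1 set to 1, and quantile-normalized over 52865 probe sets, of which 158 controls were then left out. Of the 52707 others, the platform annotation gives 24956 exactly 1 gene symbol, 361 several and 27390 none, and a gene was read at its probe set with the highest mean. The comparison used limma 3.58.1 in R 4.3.3 (empirical Bayes with an intensity trend, no covariates, Benjamini-Hochberg adjustment, threshold 0.05).

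The genes and lists were chosen with earlier results of these data known. The text names every probe set of the 4 carriers, RPL19, up to 3 genes of each list with the smallest p, the 4 genes most like STAR and the 2 most like each other carrier. The alternatives were the signals as deposited, array medians, cyclic loess, a pseudocount of 16, dim probe sets left out, array weights, limma with no trend, the methods' t-test, the 3' to 5' ratio as covariate, the mean over probe sets and each array left out. Controls left out before normalization was chosen after seeing the data. Precision is limited by the number of arrays, and the median replicate SD was 0.635 over measured genes.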

Additional observations from a re-analysis of the deposited data

How the results depend on the processing

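Of 32 genes named beside the carriers, 5 changed sign under at least 1 of 16 alternatives, and they are given below. No probe set had an adjusted p under 0.05 in any alternative. At an unadjusted p under 0.05 the count was 1756 with dim probe sets left out, 5086 with array weights, 7020 without CET replicate 1 and 1694 without VEH replicate 5. The median difference of all measured genes was -0.13 as reported and -0.30 with array medians subtracted, and under that scaling STAR was -1.90, STARD4 -1.85, STARD3 -0.38 and TSPO -0.31.

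The sign turned for TSPO with the mean over probe sets (0.088), for the difference between STAR and STARD4 with signals as deposited and array medians (-0.049 each), for that between STARD3 and TSPO under cyclic loess (7.0e-05) and for ECE2 with signals as deposited (0.058). The median of the steroid converting enzymes moved to -1.18 with array medians. Leaving out 1 array at a time gave -0.86 to 0.30 for STARD3, -0.40 to 0.165 for TSPO, -0.051 to 0.73 for its dimmer probe set, -0.17 to 0.38 for the difference between STAR and STARD4 and -0.54 to 0.29 for that between STARD3 and TSPO. It gave -0.68 to 0.089 for NHSL3, -1.09 to 0.099 for NUBP2, -0.50 to 0.041 for SRA1, -0.30 to 0.19 for ECE2 and -0.70 to 0.023 for RPL19. The list medians ranged from -0.95 to -0.30 for mitochondrial import, -0.91 to -0.15 for sterol sensing, -0.73 to -0.27 for regulators of STAR and -0.27 to 0.061 for LH receptor and protein kinase A, the last positive without CET replicate 3. The causes were not tested. No paired analysis was possible because the labels number the CET and VEH arrays separately and do not pair them.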
